A study of Mus musculus with 4 samples.

Results

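The 10 genes described here encode the core of STAT5 signalling and its feedback: the kinases Jak1 and Jak3, the transcription factors Stat5a and Stat5b, the suppressors Cish, Socs1, Socs2 and Socs3, and the kinases Pim1 and Pim2. They were chosen by gene symbol, and all 10 were found among the 11883 genes of the authors' deposited table. RNA came from lung T helper 2 (Th2) cells of C57BL/6 mice on a chronic schedule of papain, a protease that causes allergic airway inflammation. The cells were sorted as live, CD4+ and T1/ST2+, the interleukin-33 receptor encoded by Il1rl1. The genotype with the Cre is Klrg1Cre Gata3(fl/fl), called Klrg1Cre here, and the one without it is Gata3(fl/fl), called control, with 2 samples each. Both genotypes carry the floxed Gata3 alleles, received papain and were sorted alike, and neither age nor sex is given. The Cre is named for Klrg1 and can cut only in cells in which it is or was made, and no group carried the Cre without floxed alleles. The authors' headers call the columns ILC2 deficient and WT, after group 2 innate lymphoid cells (ILC2), and these were taken as Klrg1Cre and control because WT has no Cre; the labels do not state this link.

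Cytokines of the common gamma chain family, such as interleukin-2, interleukin-7 and interleukin-4, bind receptors that hold JAK1 and JAK3. These kinases phosphorylate STAT5A and STAT5B, which dimerise, enter the nucleus and switch on target genes. CISH and the SOCS proteins are among the targets and restrain the receptors and kinases in turn, while the PIM kinases favour survival and growth. In T cells this pathway sustains interleukin-2 responses, Th2 differentiation and regulatory T cells.

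The values are the authors' group means in CPM, read counts scaled to the depth of each library, with 1 mean per genotype and gene. The means allowed the library sizes to be worked out: 26019065 and 14564426 reads in the Klrg1Cre libraries, 33379572 and 31961572 in the control libraries. Rn45s, the precursor of ribosomal RNA, took a mean of 67.1% of Klrg1Cre reads and 51.4% of control reads. The unadjusted p of this difference in the authors' deposited table was 0.709. Reads outside the listed genes made up 14.7% of Klrg1Cre reads and 30.8% of control reads, and what they hold is unknown. Log2 ratios of all genes had a median of 0.01. Gata3, the floxed gene, averaged 294 CPM in Klrg1Cre cells and 221 CPM in control cells in the authors' deposited table (unadjusted p = 0.0115, adjusted p = 0.551). A mean over the whole gene does not resolve the floxed exons, so it does not check the labels. Whether the 2 samples of a genotype are from different mice is not stated, so the spread behind the p-values may be technical alone.

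None of the 10 genes passed the authors' adjusted p of 0.05 over all genes, where 7 of 11883 genes (0.0589%) did. At an unadjusted p of 0.05, 2 of the 10, Pim2 and Cish, had higher means in Klrg1Cre, and 0 had lower means. Over all genes listed in the authors' deposited table, 442 (3.72%) had higher means at that threshold and 401 (3.37%) had lower ones. The means of 4 genes were higher and those of 6 lower in Klrg1Cre, and the median log2 ratio of the 10 was -0.05. These directions rest on the deposited scaling: with all reads other than Rn45s as the total, every gene in the table shifts by 0.57 on the log2 scale, all 10 means become higher in Klrg1Cre and their median becomes 0.52. The Jak and Stat5 genes had log2 ratios between -0.20 and -0.02, while the suppressor and Pim genes spread to both sides. Their log2 ratios ran from -0.39 for Socs3 to 0.87 for Pim2.

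**Figure D1:**
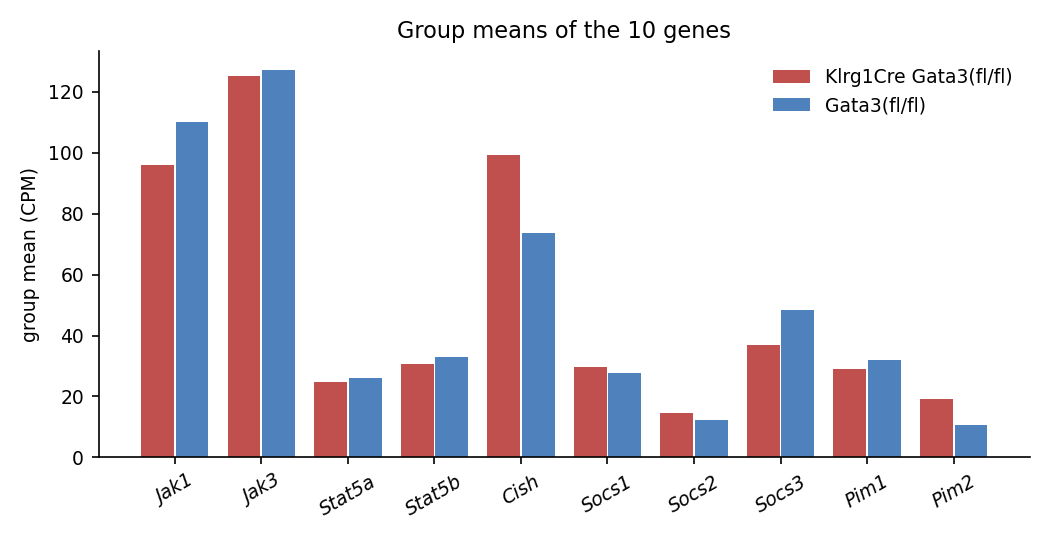
Deposited group means in CPM (vertical axis) of the 10 genes in Klrg1Cre Gata3(fl/fl) cells (red bars) and Gata3(fl/fl) cells (blue bars); each bar is the authors' mean of 2 samples and has no error. Pim2 stands at 19.3 CPM in Klrg1Cre against 10.5 CPM in control and Cish at 99.3 CPM in Klrg1Cre against 73.8 CPM in control, while both Jak and both Stat5 genes have bars of similar height.

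The kinase genes encode the first step of the pathway. Jak1, whose product serves gamma chain and interferon receptors alike, had a mean of 95.9 CPM in Klrg1Cre cells and 110.2 CPM in control cells by the authors' deposited table (log2 ratio -0.20, unadjusted p = 0.290). Jak3, whose product binds the common gamma chain alone, had 125 CPM in Klrg1Cre cells and 127 CPM in control cells in the authors' deposited table (log2 ratio -0.02, unadjusted p = 0.874). Neither difference passed the authors' test, and the spread of the samples cannot be read from the means.

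Stat5a and Stat5b encode the 2 STAT5 proteins, which overlap widely in function. In the authors' deposited table Stat5a had 24.6 CPM in Klrg1Cre cells and 25.9 CPM in control cells (log2 ratio -0.08, unadjusted p = 0.617). Stat5b, in the same deposited table, had 30.8 CPM in Klrg1Cre cells and 32.9 CPM in control cells (log2 ratio -0.09, unadjusted p = 0.594). Both genes had slightly lower means in Klrg1Cre and neither passed the test. They lie next to each other in the mouse genome, beside Stat3, and their transcripts are alike. Of 3839 windows of 50 bases along the longest GENCODE transcript of Stat5a, 608 (15.8%) occur unchanged in that of Stat5b, and the longest identical stretch was 324 bases. How the authors' counting shared out reads from such stretches is not given in the sources used here, which leaves the level of each uncertain.

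Cish encodes the cytokine-inducible SH2 protein, which dampens interleukin-2 and T cell receptor signals. It was 1.34-fold higher by the deposited means, at 99.3 CPM in Klrg1Cre cells and 73.8 CPM in control cells. The unadjusted p was 0.0114 in the authors' deposited table, place 238 of all genes, and the adjusted p was 0.551. Cish therefore did not pass the threshold over all genes.

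The 3 SOCS genes had ratios on both sides of equality. Socs1, whose product blocks JAK kinases directly and curbs interferon gamma and gamma chain cytokines, was at a deposited 29.6 CPM in Klrg1Cre cells and 27.9 CPM in control cells (log2 ratio 0.08, unadjusted p = 0.724). Socs2, a STAT5 target known for limiting growth hormone signalling, had 14.5 CPM in Klrg1Cre cells and 12.1 CPM in control cells in the authors' deposited table (log2 ratio 0.25, unadjusted p = 0.221). Neither passed the authors' test, before or after adjustment.

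Socs3 encodes the main brake on interleukin-6 family signals through STAT3 and is also induced by STAT5. For this gene the reads of each library could be worked out. It had 27.6 CPM (717 reads) in the larger and 46.0 CPM (670 reads) in the smaller Klrg1Cre library. The control libraries lay closer together, at 51.3 CPM (1714 reads) in the larger and 45.4 CPM (1450 reads) in the smaller. The smaller Klrg1Cre library lay between the 2 control libraries, so the genotypes overlapped, and the larger Klrg1Cre library was the low one. The 95% Clopper-Pearson interval of that low library was 25.6 to 29.6 CPM, apart from the 42.6 to 49.6 CPM of the other Klrg1Cre library. Counting error, the only error these intervals cover, is thus smaller than the gap between the 2 Klrg1Cre libraries. The control intervals, 48.9 to 53.8 CPM in the larger and 43.1 to 47.8 CPM in the smaller library, did not meet either.

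The deposited means of Socs3 were 36.8 CPM in Klrg1Cre cells and 48.4 CPM in control cells, 1.31-fold lower, with an unadjusted p of 0.0767 and an adjusted p of 0.729. The size of this difference turned on which Klrg1Cre library was used. Without the larger one the log2 ratio was -0.07, without the smaller one -0.81, and with both -0.39. In limma on log2(CPM + 1) the log2 difference of Socs3 was -0.43 with all 4 libraries (adjusted p = 0.686). Leaving out the smaller Klrg1Cre library gave -0.79 and leaving out the larger one -0.07. Leaving out the larger control library gave -0.34 and the smaller one -0.51. Such fits leave 1 library in a group, so no p-value is given for them. Summed over the 5 of 9 macrophage markers with library values, the larger and smaller Klrg1Cre libraries held 18.0 and 14.5 CPM, and the larger and smaller control libraries 20.0 and 16.5 CPM. The low Socs3 library, the larger Klrg1Cre one, lay within the range of the other 3 libraries in these markers. Chil3, Lyz2 and Cd68, with deposited means of 1124, 396 and 68.0 CPM in Klrg1Cre cells, had no library values. The sums therefore cover little of the macrophage RNA and cannot place the low library in it. The larger Klrg1Cre library was the lowest of the 4 in 3 other marker lists. For the 6 T cell markers with library values the margin was narrow, with 623.2 and 667 CPM in the larger and smaller Klrg1Cre libraries and 643 and 623.4 CPM in those of control. The 3 regulatory T cell markers with library values summed to 31.2 and 50.5 CPM in the larger and smaller Klrg1Cre libraries and 57.9 and 83.4 CPM in those of control. The 4 epithelial markers summed to 10.7 and 17.9 CPM in the larger and smaller Klrg1Cre libraries and 15.5 and 14.2 CPM in those of control. Their part in the Socs3 values was not tested.

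The Pim genes encode serine/threonine kinases that need no activating partner, so that their level sets much of their activity. Pim2 had 18.2 CPM (474 reads) in the larger and 20.3 CPM (296 reads) in the smaller Klrg1Cre library. In control it had 9.89 CPM (330 reads) in the larger and 11.2 CPM (357 reads) in the smaller library. Both Klrg1Cre libraries lay above both control libraries, as they did for 1034 of the 5351 genes with library values (19.3%). Counting intervals did not meet either: the lower Klrg1Cre library reached down to 16.6 CPM, and the higher control library reached up to 12.4 CPM.

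The deposited means of Pim2 were 19.3 CPM in Klrg1Cre cells and 10.5 CPM in control cells, 1.83-fold higher. Its unadjusted p of 0.000722 was place 38 of all genes in the authors' deposited table, and its adjusted p was 0.209, above the threshold. In limma the log2 difference of Pim2 was 0.81 ± 0.17 (standard error) on the log2(CPM + 1) scale, with an adjusted p of 0.161 over 4242 genes. Leaving out 1 library at a time kept the log2 ratio between 0.79 and 0.96. The limma log2 difference then lay between 0.73 and 0.89. Such fits leave 1 library in a group, so only the differences are given.

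Pim1, the other Pim kinase gene among the 10, was at a deposited 29.1 CPM in Klrg1Cre cells and 31.9 CPM in control cells (log2 ratio -0.13, unadjusted p = 0.428). Pim1 and Pim2 thus lay on opposite sides of equality, though the difference between their ratios was not tested. Their longest transcripts shared 0 of 2649 windows of 50 bases, with a longest identical stretch of 17 bases.

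**Figure D2:**
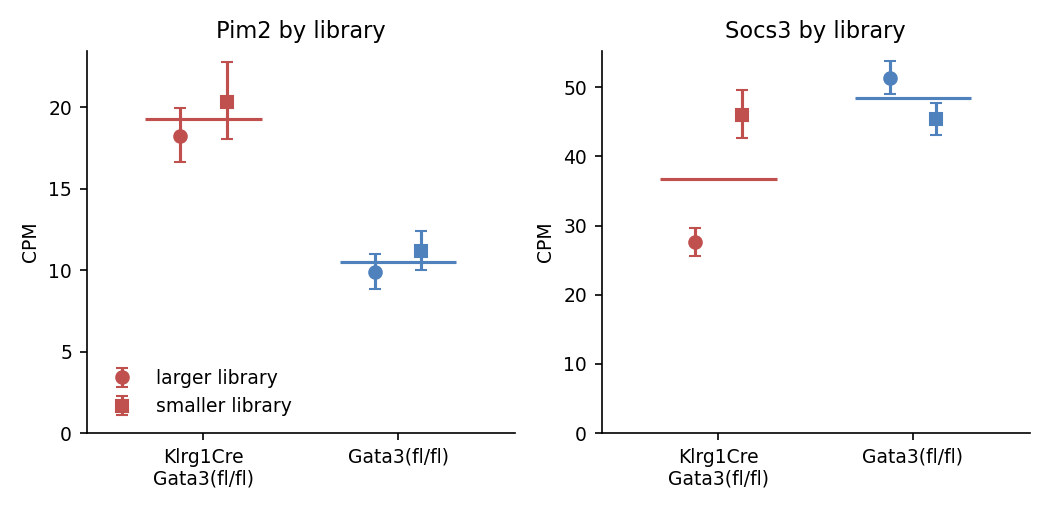
CPM (vertical axis, from 0) of Pim2 and Socs3 in each library, Klrg1Cre Gata3(fl/fl) in red and Gata3(fl/fl) in blue; circles are the larger and squares the smaller library of a group, bars are 95% Clopper-Pearson intervals for counting error, and horizontal lines are group means. For Pim2 the 18.2 and 20.3 CPM of Klrg1Cre lie above the 9.89 and 11.2 CPM of control, while for Socs3 the larger Klrg1Cre library lies alone at 27.6 CPM.

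**Figure D3:**
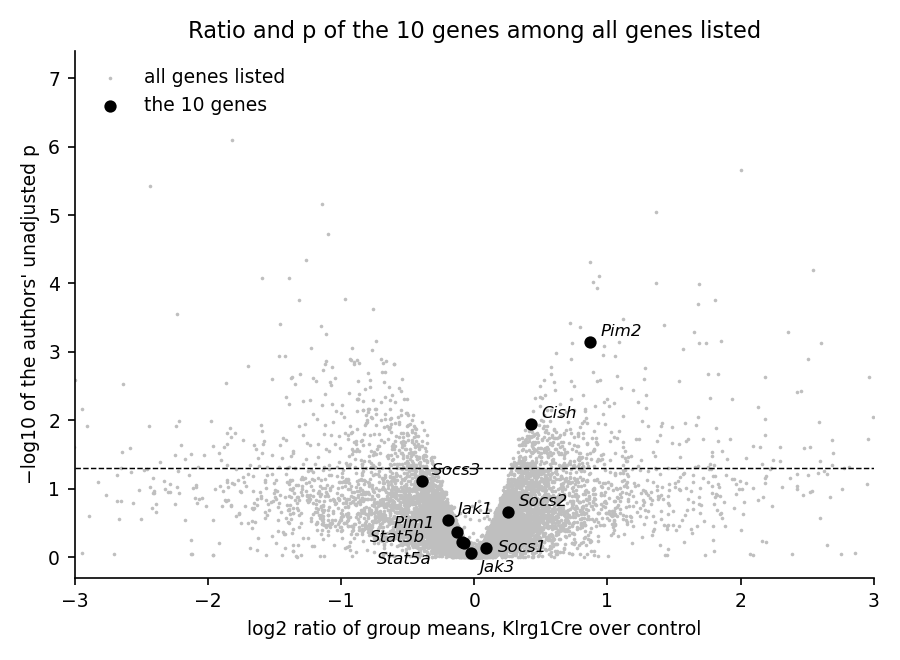
Log2 ratio of deposited group means, Klrg1Cre over control (horizontal axis), against −log10 of the authors' unadjusted p (vertical axis) for all genes listed (grey) and the 10 genes (black); the dashed line marks p = 0.05, and 123 genes beyond the horizontal range or listed at 0 are not drawn. Pim2 and Cish lie above the line on the right, and the other 8 genes lie under it.

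Levels of different genes were compared per kilobase of exon, with lengths from all protein-coding transcripts of GENCODE M21, since longer transcripts collect more reads. On this scale Jak3, Cish and Jak1 held the highest deposited means. Jak3 had 28.02 CPM per kilobase in Klrg1Cre and 28.5 in control, and Cish had 27.2 in Klrg1Cre and 20.2 in control. Jak1 had 19.3 CPM per kilobase in Klrg1Cre and 22.2 in control. Socs3 was in place 4 of the 10 in both genotypes, with 14.4 CPM per kilobase in Klrg1Cre and 18.9 in control. Socs1 and Pim1 held the middle, with 10.2 and 9.37 CPM per kilobase in Klrg1Cre and 9.58 and 10.3 in control. Pim2 was in place 6 in Klrg1Cre with 9.42 CPM per kilobase and in place 9 in control with 5.15. Stat5a, Stat5b and Socs2 lay between 5.30 and 5.99 CPM per kilobase in Klrg1Cre and between 4.44 and 6.31 in control. The place of Pim2 turned on its length: its exons cover 2045 bases, and with the 1113 bases of its shorter transcript it had 17.3 CPM per kilobase in Klrg1Cre and 9.46 in control. With the length of the longest transcript in place of all exons, Cish moved above Jak3 in Klrg1Cre and above Jak1 in control. For 8 of the 10 genes only the means are known, so it cannot be said which neighbours in this order differ beyond their spread.

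Within the Pim family, Pim2 made up 41.5% of the summed level per kilobase in Klrg1Cre and 27.1% in control. Pim1 made up 41.3% in Klrg1Cre and 54.1% in control, and Pim3 made up 17.2% in Klrg1Cre and 18.8% in control. These shares come from the deposited means alone and move with the lengths taken for Pim1 and Pim2. With the longest transcript in place of all exons, Pim1 had 10.8 and Pim2 9.42 CPM per kilobase in Klrg1Cre. In control these were 11.8 and 5.15.

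Promoter sequences were examined for the STAT5 motif TTCNNNGAA, in which N is any base and which reads the same on both strands. RefSeq promoters of build GRCm38.p6 were found for 9 of the 10 genes, with 12 start sites in all, and none for Socs2. In the 250 bases before the start site, 1 of these 12 promoters held the motif, that of Socs3, against 5.89% of the 12012 promoters of genes in the table and 7.02% of all 32851. The 3 promoters below belong to the suppressor with the motif and to the 2 genes with an unadjusted p under 0.05. They run 5′ to 3′ up to the base before the start site, with the motif in capitals. Their coordinates are those of GRCm38.p6, not of the mm9 build the authors used: Socs3 lies at chr11:117969367-117969616 on the minus strand, Cish at chr9:107296409-107296658 on the plus strand and Pim2 at chrX:7878056-7878305 on the plus strand.
Socs3: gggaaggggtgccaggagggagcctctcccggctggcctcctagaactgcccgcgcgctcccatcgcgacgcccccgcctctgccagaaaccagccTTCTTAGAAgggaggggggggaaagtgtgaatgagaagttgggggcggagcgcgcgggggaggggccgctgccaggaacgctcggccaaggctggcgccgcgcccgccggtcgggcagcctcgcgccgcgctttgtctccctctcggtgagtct
Cish: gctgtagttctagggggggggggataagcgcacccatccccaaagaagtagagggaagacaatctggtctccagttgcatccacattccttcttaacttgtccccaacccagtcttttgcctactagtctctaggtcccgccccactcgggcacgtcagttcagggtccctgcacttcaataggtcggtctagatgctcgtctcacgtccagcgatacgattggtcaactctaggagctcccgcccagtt
Pim2: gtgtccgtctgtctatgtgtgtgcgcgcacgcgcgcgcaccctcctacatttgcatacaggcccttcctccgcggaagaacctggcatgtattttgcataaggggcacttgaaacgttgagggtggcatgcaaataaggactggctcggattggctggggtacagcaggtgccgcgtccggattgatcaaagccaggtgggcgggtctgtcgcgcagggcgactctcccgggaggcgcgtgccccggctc
The motif of Socs3 begins 154 bases before the start site. The exact letters were not in the windows of Cish and Pim2, which says nothing of sites further away or with other letters.

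The receptors and cytokines upstream of the 10 genes were taken from lists. Of 13 receptor genes that signal through JAK1, JAK3 or STAT5, 3 had lower means in Klrg1Cre at an unadjusted p of 0.05 and 0 had higher means. Among all genes listed, 3.37% had lower and 3.72% higher means at that threshold. The receptors had a median log2 ratio of -0.10, and none of them passed adjustment in the authors' deposited table. Il2rb, the chain shared by the interleukin-2 and interleukin-15 receptors, had 89.6 and 96.7 CPM in the larger and smaller Klrg1Cre libraries and 119 and 125 CPM in those of control. The groups did not overlap, and the deposited unadjusted p was 0.0104. Il2ra, the alpha chain that gives the interleukin-2 receptor its high affinity, had 17.0 and 22.1 CPM in Klrg1Cre cells and 22.9 and 32.4 CPM in control cells. Here too both Klrg1Cre libraries were the lower ones, by a narrow margin (deposited unadjusted p = 0.0424). Both Klrg1Cre libraries were below both control libraries for 978 of the 5351 genes with library values (18.3%). Il2rb and Il2ra were named for an unadjusted p below 0.05, which favours libraries that lie apart, so the order adds no support. Il7r, the interleukin-7 receptor alpha chain, was 1.63-fold lower with 56.1 CPM in Klrg1Cre cells and 91.3 CPM in control cells, by the deposited means (unadjusted p = 0.00126, adjusted p = 0.268). Il2rg, the common gamma chain and the most abundant of the receptors, had deposited means of 212 CPM in Klrg1Cre cells and 199 CPM in control cells (unadjusted p = 0.490).

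Markers of regulatory T cells, which hold much Il2ra, had lower means alongside. All 10 of 10 markers had lower deposited means in Klrg1Cre, 9 of them at an unadjusted p of 0.05 and 1, Itgae, after adjustment. Over all 11883 genes listed, 401 (3.37%) had lower means at that unadjusted p. The 10 markers, of which Il2ra is one, summed to 254 CPM in Klrg1Cre cells and 534 CPM in control cells in the authors' deposited table. The 3 with library values, Ikzf2, Il2ra and Lrrc32, summed to 31.2 and 50.5 CPM in the larger and smaller Klrg1Cre libraries and to 57.9 and 83.4 CPM in those of control. No marker of this list was listed at 0. Fewer cells of a type and less RNA per cell cannot be told apart in bulk samples, and the part of these markers in the receptor values was not tested.

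Other cell types were covered by short marker lists in the authors' deposited table. Of 8 T cell markers 7 were listed, with sums of 888 CPM in Klrg1Cre cells and 893 CPM in control cells, and Trbc2 was not listed. Il1rl1, a sort marker, was at a deposited 59.1 CPM in Klrg1Cre cells and 68.0 CPM in control cells. The 8 ILC2 markers summed to 511 CPM in Klrg1Cre cells and 548 CPM in control cells, and without Gata3 the other 7 summed to 217 CPM in Klrg1Cre cells and 326 CPM in control cells. Of the 8, 3 had higher and 2 lower deposited means at an unadjusted p of 0.05, and 0 passed adjustment. The shares over all genes listed were 3.72% higher and 3.37% lower. Klrg1, the gene the Cre is named for, was 11.5-fold lower, at a deposited 4.19 CPM in Klrg1Cre cells and 48.4 CPM in control cells (adjusted p = 0.0701). Arg1, the arginase of ILC2 and of macrophages, was at a deposited 53.9 CPM in Klrg1Cre cells and 98.5 CPM in control cells. The 3 with higher means were Nmur1, Kit and Gata3, and Nmur1, the neuromedin U receptor, was at a deposited 7.73 CPM in Klrg1Cre cells and 2.40 CPM in control cells. The 9 macrophage markers summed to 1606 CPM in Klrg1Cre cells and 2375 CPM in control cells, with Marco listed at 0 in control. Chil3 alone was at a deposited 1124 CPM in Klrg1Cre cells and 1932 CPM in control cells. The other 8 summed to 482 CPM in Klrg1Cre cells and 442 CPM in control cells. Most of that sum was Lyz2, at 396 CPM in Klrg1Cre cells and 364 CPM in control cells (deposited unadjusted p = 0.700). By gene, 6 of the 9 had lower and 3 higher deposited means in Klrg1Cre, with a median log2 ratio of -0.38. B cell markers summed to 1.72 CPM in Klrg1Cre cells and 3.18 CPM in control cells, and epithelial markers to 14.3 CPM in Klrg1Cre cells and 14.8 CPM in control cells. The part of these cells in the values of the 10 genes was not tested.

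Of 9 cytokines that act through these receptors, 4 were listed in the authors' deposited table, all at low levels. Il21, a product of helper T cells that signals mainly through STAT3, had deposited means of 1.69 CPM in Klrg1Cre cells and 0.533 CPM in control cells (unadjusted p = 0.0116, adjusted p = 0.551). Il4, the most abundant of the 4, had 2.60 CPM in Klrg1Cre cells and 2.26 CPM in control cells in the same deposited table (unadjusted p = 0.630). Il2, the main STAT5 cytokine of T cells, had 0.115 and 2.06 CPM in the larger and smaller Klrg1Cre libraries and 0.449 and 0.0939 CPM in those of control. The groups overlapped, and the smaller Klrg1Cre library was the high one. Il15 was listed below 1 CPM in both genotypes.

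The 7 other JAK and STAT genes had a median log2 ratio of -0.11, and 0 of them passed adjustment in the authors' deposited table. Stat3, the most abundant of these in the same deposited table, had 113 CPM in Klrg1Cre cells and 124 CPM in control cells. Over all genes listed, 3.72% passed an unadjusted p of 0.05 with higher and 3.37% with lower means. Of the other SOCS and Pim genes, 0 of 5 did, with a median log2 ratio of -0.16. Pim3, the most abundant of them, had 6.96 and 12.02 CPM in the larger and smaller Klrg1Cre libraries and 11.3 and 6.04 CPM in those of control. The Pim3 values of the 2 genotypes interleaved.

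Of 10 phosphatases, PIAS proteins and adaptors that restrain JAK and STAT proteins, 1 had a higher and 1 a lower deposited mean at an unadjusted p of 0.05. Among all genes listed, 3.72% had higher and 3.37% lower means at that threshold. The median log2 ratio of this list was 0.01. Ptpn6, which encodes the phosphatase SHP-1 that turns off receptor-bound kinases, was 1.52-fold higher with 50.02 CPM in Klrg1Cre cells and 32.9 CPM in control cells in the authors' deposited table (unadjusted p = 0.00365, adjusted p = 0.374). Ptprc, which encodes the phosphatase CD45 and was the most abundant of this list, had deposited means of 85.2 CPM in Klrg1Cre cells and 105 CPM in control cells (unadjusted p = 0.0347, adjusted p = 0.661).

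Further targets of STAT5 in T cells, 14 genes all listed, had higher deposited means in 11 and lower means in 3. At an unadjusted p of 0.05, 3 had higher means and 1 a lower one, and 0 passed adjustment in the authors' deposited table. Among all genes listed, 3.72% had higher and 3.37% lower means at that threshold. The median log2 ratio of this list was 0.24, against -0.05 for the 10 genes and 0.01 for all genes. The list was not sorted by whether STAT5 raises or lowers each gene, so its counts and median do not measure STAT5 activity. Osm, which encodes the cytokine oncostatin M, had 20.2 and 21.3 CPM in the larger and smaller Klrg1Cre libraries and 14.9 and 15.8 CPM in those of control (deposited unadjusted p = 0.0230). Ccnd2, which encodes the cell cycle driver cyclin D2, had 63.1 and 76.8 CPM in Klrg1Cre cells and 53.3 and 52.9 CPM in control cells (deposited unadjusted p = 0.0208). Id2, an inhibitor of E proteins and the most abundant of the list, had 178 and 160.2 CPM in Klrg1Cre cells and 136 and 132 CPM in control cells (deposited unadjusted p = 0.0228). For these 3 genes both Klrg1Cre libraries lay above both control libraries, as for 1034 of the 5351 genes with library values (19.3%). They were named for an unadjusted p below 0.05, which favours libraries that lie apart, so the order adds no support. Prdm1, which encodes the repressor BLIMP-1, had lower values, with 21.1 and 22.04 CPM in Klrg1Cre cells and 31.5 and 30.8 CPM in control cells (deposited unadjusted p = 0.00494, adjusted p = 0.412). Both Klrg1Cre libraries of Prdm1, named by the same rule, lay below both control libraries, as for 978 of the 5351 genes (18.3%).

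**Figure D4:**
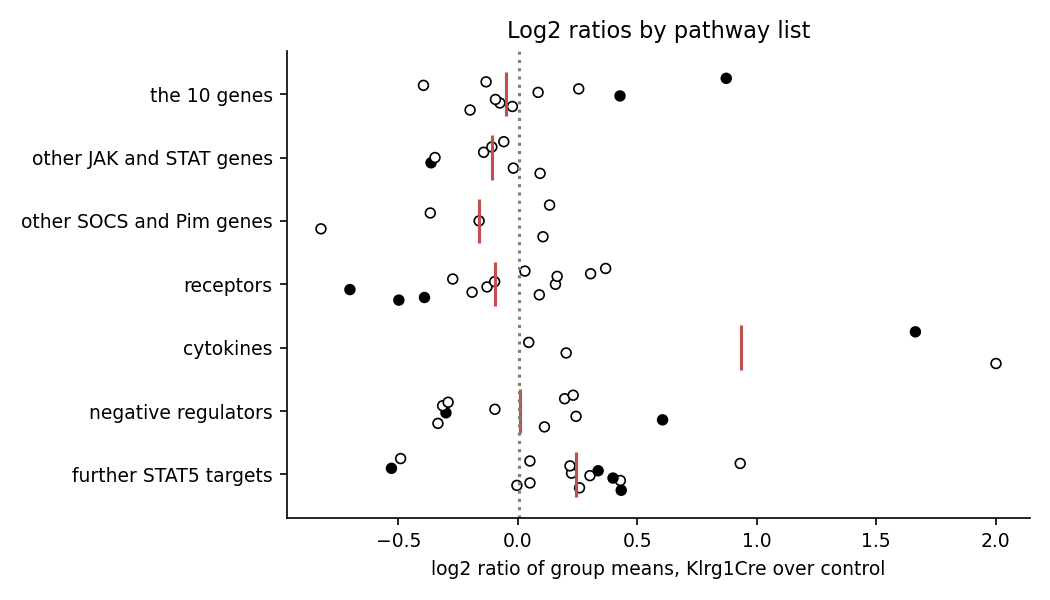
Log2 ratio of deposited group means, Klrg1Cre over control (horizontal axis), for the 10 genes and the 6 pathway lists (rows); each point is a gene, filled where the authors' unadjusted p was below 0.05, red lines are list medians, and the dotted line is the median of all genes. The medians run from -0.16 for the other SOCS and Pim genes to 0.93 for the 4 cytokines, all of which had low levels.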

How the data were processed

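RNA was sequenced from 4 samples, 2 per genotype, and the deposited data are 1 table of the authors' comparison with no column for a single sample. STAR, Partek and the build mm9 are named in the submitters' processing notes; versions, annotation and model are not given in the sources used here. The authors' group means are in CPM with an offset of 0.0001, per the file headers and values. The deposited fold change, a score, is the deposited ratio of both means with a sign and was not used. The deposited signal per gene, named total counts, was 2 times the sum of the means and was not used. The deposited adjusted p-values were a Benjamini-Hochberg adjustment of the authors' p-values in all 11883 rows.

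The means hold no spread, so the authors' p-values were used and no test was run on them. Each mean was written as whole reads of 2 libraries, to within 1e-09 reads, where exactly 1 pair of whole numbers gave it. This worked in both groups for 5351 genes (45.0%), among them Pim2 and Socs3, and was tested on simulated data. Which library is which sample is unknown. The other means gave no whole reads, so no count model was fitted. limma 3.58.1 in R 4.3.3, with a trended variance on log2(CPM + 1), was run as an alternative on 4242 of these 5351 genes, those averaging 1 CPM or more. Where a library was left out, the lone sample of its group was assumed to vary like the other group, so only log2 differences are given.

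The genes and lists were chosen with earlier results of these data known. All 10 genes are named, and of each list the genes with an unadjusted p below 0.05 and the most abundant one; Il2 and Il15 were named after their values were seen. The result of 1 gene of the lists is not reported here. All 10 symbols matched the annotation.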

Additional observations from a re-analysis of the deposited data

How the results depend on the processing

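Pseudocounts of 1 and 5 CPM, listed genes other than Rn45s as the total, and subtracting the median of all genes kept the direction of all 10 genes. Taking all reads other than Rn45s as the total, a scaling chosen after seeing the data, raised the log2 ratio of every gene by 0.57, so that only differences from that shift can be compared. Under it the log2 ratio became 0.37 for Jak1, 0.54 for Jak3, 0.49 for Stat5a, 0.47 for Stat5b, 0.17 for Socs3 and 0.43 for Pim1, and the median of the 10 became 0.52; the added shift is the cause. All 10 genes had a mean of at least 5 CPM. Adjusting over the 6300 genes at that level gave 0 of the 10 below 0.05, with 0.145 for Pim2 and 0.409 for Cish. limma, which had values for Pim2 and Socs3 alone, gave 1 gene with a higher level at an unadjusted p of 0.05 and 0 after adjustment. Over these 2 genes the median log2 ratio was 0.24, and leaving out 1 library at a time gave -0.010 to 0.44. No paired analysis was possible because the table has no column for a numbered sample. For the 8 genes without library values the replicate spread is unknown, and leaving out a library could not be tried.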

Other observations

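The share of genes whose means split into whole reads went with the number of curated RefSeq transcripts of a gene. Of 5870 genes with 1 such transcript, 4762 (81.1%) had library values, against 337 of 5358 genes (6.29%) with 2 or more. Among the 10 genes, Pim2 and Socs3 have 1 curated transcript each and the other 8 have 2 or more, up to 4 for Socs2.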
